A study of Rattus norvegicus with 6 samples.

Results

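Microglia of the rat nucleus accumbens shell made up 467 of 37456 kept nuclei, or 1.25%. They were chosen by a rule on measured values. A kept nucleus counted as microglia if at least 3 of the 7 genes Cx3cr1, Csf1r, C1qa, C1qb, P2ry12, Inpp5d and Aif1 had a UMI (unique molecular identifier, 1 counted RNA molecule) and if it had fewer than 5 UMIs of Pde10a, a phosphodiesterase of striatal spiny neurons. The 6 libraries were single-nucleus RNA-seq of adult Long-Evans rats aged 90 to 100 days, with 3 libraries from females and 3 from males. Each library held pooled tissue of 4 animals of the same sex, punched from the accumbens shell in frozen coronal slices of 200 µm. No treatment or genotype was named for any group. Nuclei, not whole cells, were profiled, so RNA of the cytoplasm and of fine processes was not sampled as such. The labels do not tell the animals of a pool apart, so every spread given here is a spread between pools, and nothing in them says whether the pools were prepared separately.

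Microglia are the resident macrophages of brain tissue. They derive from the yolk sac in mice, depend on signalling through the Csf1r receptor, and survey their surroundings with motile processes. In the resting state they carry the fractalkine receptor Cx3cr1 and the purine receptor P2ry12, and they supply the complement component C1q, which tags synapses and debris for removal. The ETS factor PU.1, encoded by Spi1, sets up much of the transcription of this lineage and binds purine-rich sites around the core GGAA.

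The promoters of 3 genes that were high in these nuclei are shown because each holds the 8-letter purine-rich motif GAGGAAGT. They run from 250 bases before to 50 bases after the annotated start, read 5′ to 3′ in the direction of the gene, and are taken from RefSeq on GRCr8. Capitals mark the motif, or ACTTCCTC where it lies on the opposite strand. Inpp5d, the inositol phosphatase SHIP1 and one of the rule genes, lies on the plus strand at chr9:95735283-95735582. Ctss, the lysosomal protease cathepsin S, lies on the plus strand at chr2:185775146-185775445. Cd37, a tetraspanin of immune cells, lies on the minus strand at chr1:104860735-104861034.
Inpp5d: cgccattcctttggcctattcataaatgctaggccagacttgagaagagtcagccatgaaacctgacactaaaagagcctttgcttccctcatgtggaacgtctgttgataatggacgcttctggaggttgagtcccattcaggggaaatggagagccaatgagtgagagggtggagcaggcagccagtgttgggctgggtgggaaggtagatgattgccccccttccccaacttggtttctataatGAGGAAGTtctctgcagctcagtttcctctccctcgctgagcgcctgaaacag
Ctss: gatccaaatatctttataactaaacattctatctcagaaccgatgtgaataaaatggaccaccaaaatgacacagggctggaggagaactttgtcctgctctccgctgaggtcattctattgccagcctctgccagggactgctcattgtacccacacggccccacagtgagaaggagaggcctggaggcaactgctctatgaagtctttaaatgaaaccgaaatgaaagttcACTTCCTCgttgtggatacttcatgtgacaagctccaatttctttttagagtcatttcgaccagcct
Cd37: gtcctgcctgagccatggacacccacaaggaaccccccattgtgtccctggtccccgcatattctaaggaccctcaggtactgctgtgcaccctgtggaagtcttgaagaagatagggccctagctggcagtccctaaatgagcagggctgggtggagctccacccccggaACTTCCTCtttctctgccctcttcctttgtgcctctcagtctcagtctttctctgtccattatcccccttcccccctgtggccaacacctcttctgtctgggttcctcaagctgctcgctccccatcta

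The motif was searched on both strands of the same 300 bases of every gene in the promoter table, and 2.42% of 33469 promoters held it. Of the 10049 genes tested between microglia and all other kept nuclei that had a promoter entry, 2.56% held it. The share was 4.62% of 1365 genes higher in microglia, 10.5% of 210 genes with a log2 fold change above 3, and 2.17% of 2026 genes lower in microglia. These shares describe letters in a window and carry no test. Of the rule genes, Inpp5d alone of the 5 with an entry held it. P2ry12 and Aif1 had no entry.

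Microglia were found in all 6 libraries. Female pools 1, 2 and 3 held 82, 32 and 124 of them, and male pools 1, 2 and 3 held 86, 59 and 84. Their median depth was 2313, 2568.5 and 3020 UMIs in the female pools, against 2460.5, 1772 and 1522 UMIs in the male pools. The median over all of them was 2175 UMIs and 1405 genes. All other kept nuclei were deeper, with medians from 3187 to 5068 UMIs per library. No microglial barcode occurred in more than 1 library. Over the libraries, 2873 to 16504 nuclei were kept, and 1.55% to 40.7% of barcodes exceeded the limit of 5% mitochondrial UMIs. Female pool 3 and male pool 1 had the most nuclei and the fewest barcodes over that limit. The same 2 libraries carry strain, age and tissue entries that the other 4 lack, and they are called label set A here, the other 4 label set B.

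The rule genes were detected unevenly. These values chose the nuclei and are a description. Inpp5d had a UMI in 425 of the 467 nuclei, Csf1r in 386, Cx3cr1 in 342, C1qa in 234 and C1qb in 160. Aif1, the actin-binding protein IBA1, had a UMI in 106 nuclei. P2ry12 had a UMI in 51 nuclei, with 54 UMIs in all. By number of rule genes, 264 nuclei had exactly 3 rule genes, 127 had 4, 55 had 5, 18 had 6 and 3 had all 7.

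Just outside the rule stood 290 nuclei with exactly 2 rule genes and under 5 Pde10a UMIs. A further 342 nuclei had 3 or more rule genes but at least 5 Pde10a UMIs. Those over the Pde10a limit had median depths from 9276.5 to 25028 UMIs per library. CPM here are UMIs of a gene per 1000000 UMIs of the same kind of nucleus in a library. For the 15 homeostatic genes of microglia that the files hold, of 16 listed and none of them a rule gene, summed CPM were 4546, 3480 and 2633 in microglia of female pools 1, 2 and 3, and 3749, 5306 and 7118 in those of male pools 1, 2 and 3. Nuclei with exactly 2 rule genes had 1661 to 2534 CPM. Nuclei over the Pde10a limit had 817 to 1340 CPM, astrocytes 676 to 1485 CPM and all other kept nuclei 458 to 644 CPM. Astrocytes here are the 3493 kept nuclei outside the rule with a UMI of at least 3 of 6 astrocyte markers and under 5 Pde10a UMIs.

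**Figure D1:**
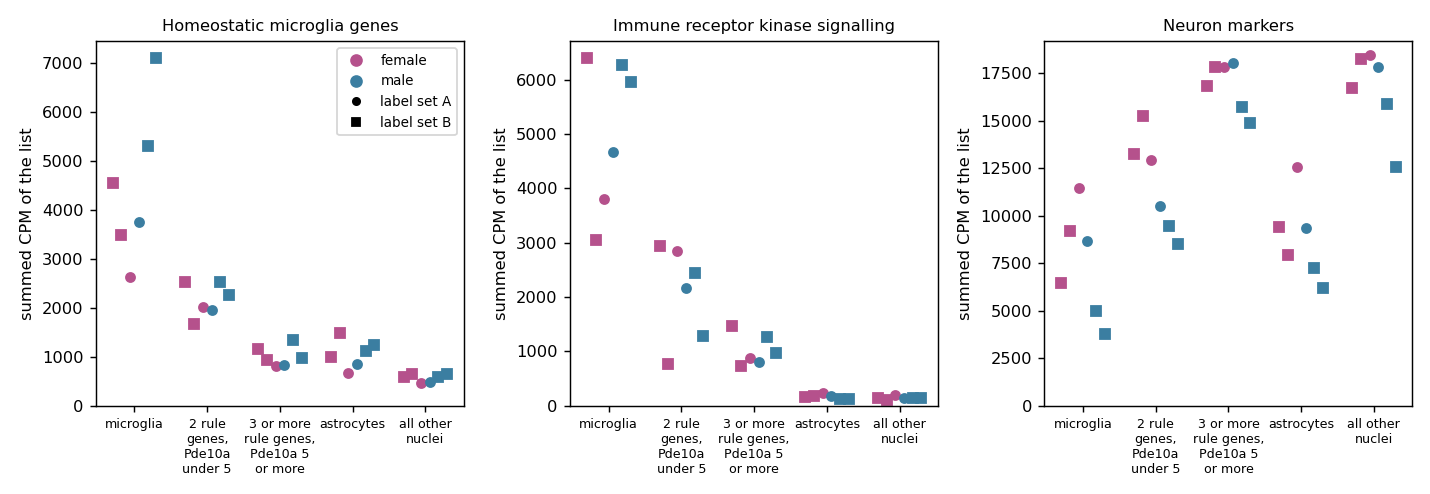
Summed CPM (UMIs per 1000000 UMIs of that kind of nucleus, vertical axis) of the homeostatic, immune receptor kinase and neuron marker lists for 5 kinds of nucleus (horizontal axis). Each point is 1 library, coloured by sex and shaped by label set; the 2-gene and Pde10a kinds are also part of all other nuclei. Homeostatic CPM ran from 2633 to 7118 in microglia and from 458 to 644 in all other nuclei.

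Markers that the rule did not use served as a check of the label. Each nucleus was thinned to 1000 UMIs, which kept 423 of 467 microglia, 3420 of 3493 astrocytes and 35343 of 36989 other nuclei, so that shares of nuclei with a UMI could be set side by side. Arhgap15, a Rac-directed GTPase activator of blood cells, was detected in 69.0% of microglia, 3.77% of astrocytes and 3.29% of other nuclei. Slco2b1, an organic anion transporter, was detected in 53.7% of microglia, 0.819% of astrocytes and 0.990% of other nuclei. Ctss was detected in 42.1% of microglia, 0.731% of astrocytes and 0.973% of other nuclei. Ptprc, the leukocyte phosphatase CD45, was detected in 27.7% of microglia and 0.351% of astrocytes. Tmem119, a membrane protein used to tell microglia from other macrophages, was detected in 5.91% of microglia, 0.117% of astrocytes and 0.0990% of other nuclei. The astrocyte shares are a comparison from nuclei that did not meet the microglial rule. How much of them came from free RNA or misassigned reads was not tested. Before thinning, Slco2b1 had a UMI in 377 of 467 microglia and Tmem119 in 67.

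Markers of other cells were also present. Of the 467 nuclei, 437 had no UMI of any marker of perivascular and border macrophages, and 10 had UMIs of at least 2. The defining macrophage markers Mrc1 and Cd163 were detected in 12 and 9 nuclei. No UMI of any lymphocyte marker was present in 387 nuclei, and 6 had UMIs of at least 2. For markers of monocytes and neutrophils these counts were 367 and 4. Within these lists, the T cell gene Cd3e and the neutrophil gene S100a8 had no UMI in any nucleus. Il7r and Plac8, of the same lists, are given under other observations. UMIs of at least 2 neuron markers were present in 304 nuclei. These were 40 of 82, 21 of 32 and 117 of 124 microglia of female pools 1, 2 and 3. In male pools 1, 2 and 3 they were 71 of 86, 21 of 59 and 34 of 84. The source of this RNA was not tested. UMIs of at least 2 oligodendrocyte markers were present in 211 nuclei and of at least 2 astrocyte markers in 104. At least 2 markers of oligodendrocyte precursors had UMIs in 95. Syt1, a synaptic vesicle calcium sensor of neurons, was detected after thinning in 48.5% of microglia, 50.6% of astrocytes and 83.3% of other nuclei. Neuron marker CPM summed to 3761 to 11484 in microglia, 6207 to 12592 in astrocytes and 12594 to 18454 in all other kept nuclei.

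All lists were then followed gene by gene against all other kept nuclei of the same library. UMIs were summed per library and kind of nucleus and fitted with edgeR's quasi-likelihood test with the library as a block. Because the nuclei were chosen within this contrast, the fold changes describe what they hold and are not a test of the label. Of 13768 genes fitted, 33.5% had an adjusted p under 0.05, 12.9% higher in microglia and 20.6% lower. The median log2 fold change over all genes was -0.15. With DESeq2, 1817 genes were higher and 1894 lower, and its median was -0.07. Genes counted as higher or lower below passed that threshold, and errors in brackets are standard errors derived from the fold change and the F statistic.

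All 13 homeostatic genes that could be fitted were higher, out of 16 listed, with a median log2 fold change of 4.03. Slco2b1 had 746, 463 and 436 CPM in microglia of the 3 female pools and 568, 983 and 1106 CPM in those of the 3 male pools, against 4.80 to 12.9 CPM in all other nuclei. No library of other nuclei came near the microglial values, and the log2 fold change was 6.12 (SE 0.40). Siglec5, a sialic acid-binding receptor, averaged 139 ± 87.5 CPM in microglia and 1.37 ± 0.280 CPM in other nuclei (SD, n = 6 libraries each), with a log2 fold change of 6.11 (SE 0.31). P2ry6, a receptor for uridine nucleotides that drives phagocytosis, reached 6.11 (SE 0.26). Ltc4s, the leukotriene C4 synthase, reached 5.65 (SE 0.24). Tmem119 and Sall1 were singled out after their values were seen. Tmem119 was 5.31 (SE 0.34) higher on the log2 scale, and Sall1, a zinc finger factor of microglial identity in mice, 4.03 (SE 0.16) higher.

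Transcription factors of the myeloid lineage were higher in 14 of 15 fitted cases, with a median of 3.97. Ikzf1, a zinc finger factor of blood lineages, averaged 549 ± 204 CPM in microglia and 6.83 ± 2.91 CPM in other nuclei, a log2 fold change of 6.07 (SE 0.42). Fli1, an ETS factor, was 5.26 (SE 0.40) higher. Tal1, a helix-loop-helix factor of blood development, was 5.13 (SE 0.32) higher, and Irf8, an interferon regulatory factor needed for microglia in mice, 5.01 (SE 0.30) higher. Spi1 itself, chosen after its values were seen, was 4.86 (SE 0.30) higher and was detected in 10.6% of thinned microglia. Cebpb did not pass, at 0.83 (SE 0.49).

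Kinases and adaptors behind immune receptors were higher in all 16 fitted cases, with a median of 4.99. Blnk, an adaptor of Syk signalling, had 600, 330 and 265 CPM in microglia of the female pools and 312, 585 and 539 CPM in those of the male pools. In all other nuclei it had 3.58 to 8.44 CPM, and the log2 fold change was 6.0 (SE 0.40). Lcp2, the adaptor SLP-76, was 5.90 (SE 0.41) higher. Ptprc was 5.62 (SE 0.19) higher, and Pik3ap1, an adaptor to phosphoinositide 3-kinase, 5.30 (SE 0.20) higher.

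Complement and Fc receptor genes were higher in 12 of 14 cases, with a median of 4.47. C5ar1, the receptor for the anaphylatoxin C5a, was 5.75 (SE 0.38) higher. C3 was 5.34 (SE 0.55) higher on few UMIs, with 4.99 to 44.1 CPM in microglia. Itgb2, the shared beta chain of complement receptors 3 and 4, was 4.82 (SE 0.38) higher. Fcgr2a, Fcgr2b and Fcgr3a are near-copies of one another, so their separate counts are uncertain.

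Innate sensors and cytokines were higher in all 10 fitted cases out of 20 listed, with a median of 4.89. Tlr7, a sensor of single-stranded RNA, was 5.93 (SE 0.29) higher and Tlr2, a sensor of bacterial lipoproteins, 5.42 (SE 0.46) higher. Tlr3, a sensor of double-stranded RNA, was 5.16 (SE 0.33) higher, and the inflammasome component Nlrp3 5.15 (SE 0.28) higher. The unfitted genes included cytokines with few or no UMIs. Il1b and Tnf had no UMI in 467 nuclei. That allows a share of up to 0.642% of nuclei with a UMI at this depth, counting error only, and sets no limit on the share that express them. Il6 had a UMI in 8 nuclei, Ccl3 in 2 and Ccl4 in 1. Of the 36989 other nuclei, 17 had a UMI of Il1b and 0 had one of Tnf.

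Signalling through transforming growth factor beta and colony-stimulating factors was split, with 5 of 9 genes higher and 1 lower. Tgfbr1 and Tgfbr2, the receptor pair that mouse microglia need for their identity, were 4.36 (SE 0.34) and 3.99 (SE 0.19) higher. Csf3r was 4.04 (SE 0.39) higher and Smad7, an inhibitor of the pathway, 1.57 (SE 0.18) higher. Smad3, the effector, was the lower gene, at -0.44 (SE 0.15), a call that did not hold with DESeq2 at -0.34 or without female pool 1 at -0.25. The Csf1r ligand Il34, known as a product of neurons, did not pass at -0.73 (SE 0.37), and Csf2ra did not pass at -0.46 (SE 0.42). Smad3 was singled out after its values were seen.

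Of 9 purinergic and ion channel genes, 6 were higher and 1 was lower. P2rx7, an ATP-gated channel, averaged 462 ± 123 CPM in microglia and 43.2 ± 6.75 CPM in other nuclei, a log2 fold change of 3.16 (SE 0.13). Entpd1, the ectonucleotidase CD39, was 2.58 (SE 0.15) higher. Kcnk13, the potassium channel THIK-1, was 2.14 (SE 0.15) higher, and the proton channel Hvcn1 1.58 (SE 0.30) higher. The calcium channel gene Cacna1d, singled out after its values were seen, was lower at -1.22 (SE 0.14).

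Lysosome and phagocytosis genes were higher in 12 of 14 cases, with a median of 1.26. Ctss had 712, 584 and 321 CPM in microglia of the female pools and 349, 485 and 556 CPM in those of the male pools, against 8.56 to 15.9 CPM in other nuclei. Its log2 fold change was 5.24 (SE 0.17). The cathepsin Ctsz was 3.44 (SE 0.33) higher, the protease Lgmn 2.79 (SE 0.13) and the cholesterol carrier Npc2 2.44 (SE 0.15) higher.

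Genes of microglial activation and lipid handling were mixed. Of 16 listed, 12 were fitted, and 8 were higher, with a median of 1.28. The lipid receptor Trem2 had 106, 99.1 and 36.6 CPM in microglia of the female pools and 46.7, 118 and 213 CPM in those of the male pools, a range that was wide within each sex. Its log2 fold change was 4.82 (SE 0.27), and that of its adaptor Tyrobp was 4.51 (SE 0.32). The oxysterol enzyme Ch25h was 3.24 (SE 0.48) higher and the cathepsin Ctsl 1.87 (SE 0.20) higher. Axl, a receptor for dying cells, and Gpnmb did not pass, at 0.85 (SE 0.38) and 1.40 (SE 0.63). Of the 16 genes, 11 had a UMI in 7 to 371 nuclei, from Gpnmb to Apoe. The other 5, singled out after their values were seen, are known from activated microglia in mice. Itgax had a UMI in 0 of 467 nuclei, Clec7a, Spp1 and Lgals3 in 1 each and Cst7 in 4.

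Antigen presentation and interferon genes were sparse. Of 12 listed antigen presentation genes 3 could be fitted, and 2 were higher. The co-stimulator Cd86 was 5.01 (SE 0.46) higher and B2m, the light chain of class I molecules, 1.68 (SE 0.17) higher. Cd74, the class II invariant chain, had a UMI in 7 nuclei. Of 9 fitted interferon response genes 5 were higher, among them Ifih1, Mx1 and Irf9, at 1.86 (SE 0.47), 1.83 (SE 0.54) and 1.82 (SE 0.53). The calls of Ifih1 and Mx1 did not hold without male pool 1, at 1.06 and 1.24, nor that of Irf9 without female pool 1, at 1.42.

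Among the 8 genes of the glucocorticoid list, which includes the receptor gene Nr3c1, 3 were lower and 1 was higher. Fkbp5, a co-chaperone of the receptor, was at -1.13 (SE 0.29), the kinase Sgk1 at -0.84 (SE 0.15) and the factor Klf9 at -0.54 (SE 0.17). The receptor Nr3c1 was 0.46 (SE 0.18) higher. Klf9 did not pass without female pool 2 or without male pool 2, at -0.40 each. Nr3c1 did not pass without male pool 1 at 0.34 or without male pool 2 at 0.45.

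Outside the lists, the highest log2 fold changes were 6.16 (SE 0.43) for Lat2, an adaptor of myeloid and B cells, and 6.08 (SE 0.43) for the inhibitory receptor Lilrb2. The inhibitory receptor Cd300a reached 5.97 (SE 0.34) and Cd37 5.95 (SE 0.27). Nckap1l, a blood cell subunit of the WAVE actin complex, reached 5.72 (SE 0.21). The genes with the lowest fitted values had no UMI in microglia, and their fold change is a bound. Ankdd1a was at 0 CPM in microglia of every library and at 5.24 to 7.69 CPM in other nuclei. It was at least 3.45-fold lower, with 3 UMIs allowed over all microglia.

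**Figure D2:**
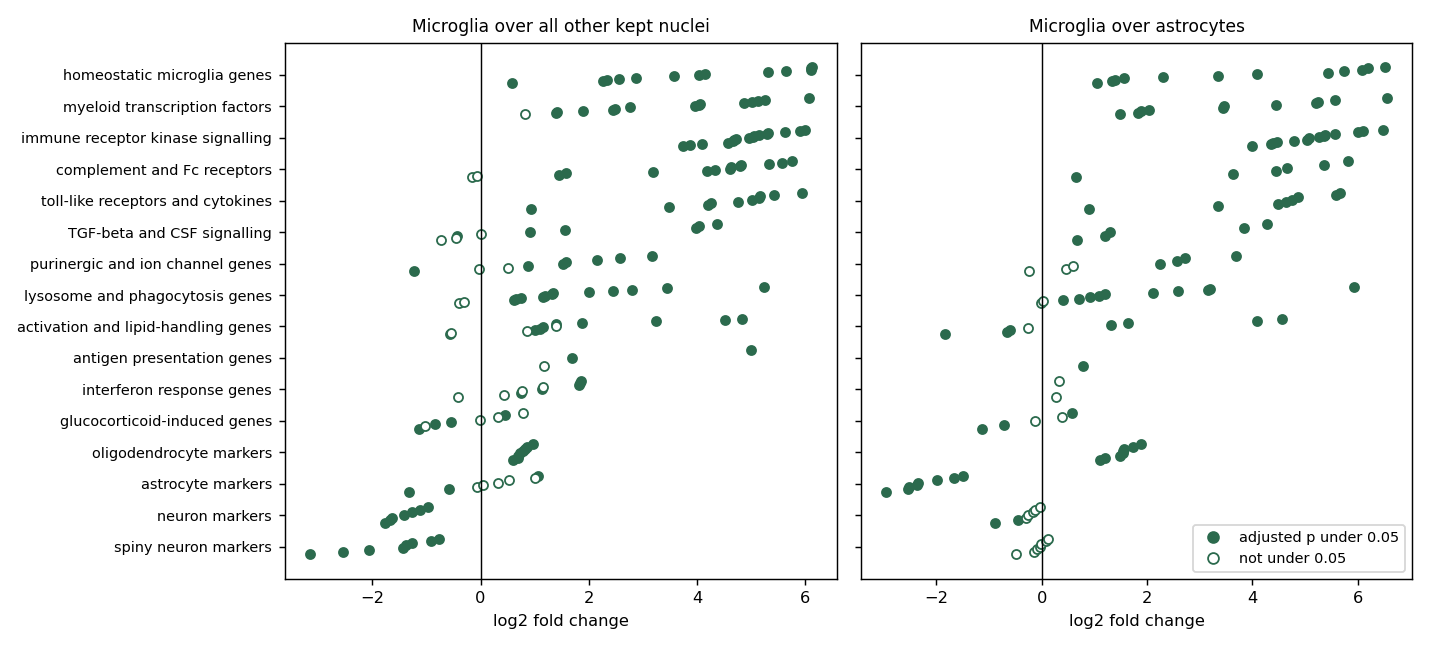
Log2 fold change (horizontal axis) of each fitted gene of 16 lists (vertical axis), microglia over all other kept nuclei on the left and microglia over astrocytes on the right. Filled points had an adjusted p under 0.05 in edgeR, open points did not; every kinase and adaptor gene lies to the right of 0 on both sides, while neuron markers have a median of -1.41 on the left and -0.26 on the right.

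Astrocytes, whose median depths were 1910 to 3642 UMIs per library, gave another comparison within glia. Of 8368 genes fitted, 29.8% had an adjusted p under 0.05, 14.5% higher in microglia and 15.3% lower. Against astrocytes, all 12 homeostatic genes, all 14 kinase and adaptor genes and all 11 transcription factors fitted were higher, with medians of 3.72, 5.17 and 3.47. Ikzf1 stood at 6.57 (SE 0.47), Blnk at 6.48 (SE 0.43), Ctss at 5.93 (SE 0.28) and Tgfbr2 at 4.28 (SE 0.39). The fructose transporter Slc2a5, outside the lists, stood at 5.86 (SE 0.24) and the cation channel Trpc6 at 5.80 (SE 0.37). The lowest values outside the lists included Etnppl at -2.94 (SE 0.31) and Itih3 at -2.86 (SE 0.33). Of the astrocyte markers, Gja1, the gap junction protein connexin 43, stood at -2.38 (SE 0.24) and the glutamate transporter Slc1a2 at -2.53 (SE 0.34).

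Activation and lipid-handling genes went both ways against astrocytes. Of 8 fitted, 4 were higher and 3 were lower. Trem2 and Tyrobp were 4.57 (SE 0.28) and 4.09 (SE 0.34) higher. Apoe, the main lipid carrier of the brain and a known astrocyte product, averaged 970 ± 451 CPM in microglia and 1627 ± 978 CPM in astrocytes, a log2 fold change of -0.66 (SE 0.16). It was detected in 56.5% of thinned microglia, 53.9% of astrocytes and 25.6% of other nuclei. Axl stood at -1.85 (SE 0.33) and the cholesterol exporter Abca1 at -0.60 (SE 0.15). Among microglia with few neuron UMIs, defined below and added after the data were seen, Apoe and Abca1 no longer passed, at -0.30 and -0.19. Apoe and Abca1 were singled out after their values were seen.

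RNA of other cells differed between the comparisons. Against all other nuclei, 7 of 7 neuron markers and 8 of 8 spiny neuron markers were lower in microglia. Against astrocytes, 2 of 7 neuron markers were lower, Grin2b at -0.88 (SE 0.17) and Syt1 at -0.45 (SE 0.16), and 0 of 7 spiny neuron markers passed. The call of Syt1 did not hold when any of 5 libraries was left out, with values from -0.50 to -0.36. All 8 oligodendrocyte markers were higher in microglia in both comparisons. Mbp, the myelin basic protein, had 769, 1333 and 930 CPM in microglia of the female pools and 858, 622 and 988 CPM in those of the male pools, against 249 to 571 CPM in other nuclei. Its log2 fold change was 0.83 (SE 0.16). The part of RNA from other nuclei in these values was not tested.

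The share of microglia was compared between the sexes. Female pools 1, 2 and 3 had 2.59% (95% Clopper-Pearson interval 2.06% to 3.20%), 1.11% (0.763% to 1.57%) and 0.751% (0.625% to 0.895%) microglia. Male pools 1, 2 and 3 had 0.978% (0.783% to 1.21%), 1.90% (1.45% to 2.45%) and 2.79% (2.23% to 3.44%). The intervals cover counting error only. The ranges of the sexes overlapped, and the highest and the lowest share of each sex differed by more than counting error. Means were 1.48% ± 0.973 in females and 1.89% ± 0.904 in males (SD, n = 3 each), a difference of -0.404 percentage points. An exact two-sided permutation test gave p = 0.6, where 3 against 3 cannot go below 0.1. Within label set A the female pool had 0.751% and the male pool 0.978%, and within label set B the female mean was 1.85% and the male mean 2.34%. Per 100 astrocytes, a ratio added after the data were seen, there were 25.3, 16.2 and 7.48 microglia in the female pools and 12.4, 19.2 and 26.9 in the male pools, and the exact permutation p was 0.7.

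**Figure D3:**
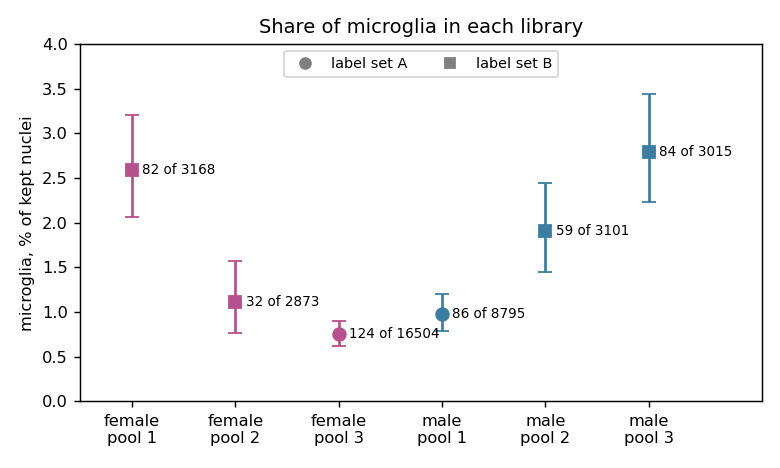
Microglia as a percentage of kept nuclei (vertical axis) in each library (horizontal axis), with 95% Clopper-Pearson intervals as bars and counts beside the points. Female pools spanned 0.751% to 2.59% and male pools 0.978% to 2.79%; circles are label set A and squares label set B.

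Gene expression in microglia was then compared between females and males, with the label set as a covariate. Of 5647 genes tested, 19 had an adjusted p under 0.05 in edgeR's quasi-likelihood test with Benjamini-Hochberg adjustment, which is 0.336%, with 0.177% higher in females and 0.159% lower. At an unadjusted p under 0.05 there were 620 genes. DESeq2 called 11. The pools were small, with 90799 to 600820 microglial UMIs in females and 160771 to 406775 in males.

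Sex-linked genes sorted the pools as labelled. Kdm5d, a Y-linked histone demethylase, had 0 CPM in each female pool, against 118, 118 and 107 CPM in the male pools, and was at least 38.2-fold lower in females. Eif2s3y, a Y-linked translation initiation factor, had 0 CPM in each female pool, against 63.9, 62.2 and 73.0 CPM in the male pools, at least 21.8-fold lower. Ddx3, a helicase symbol that RefSeq also lists as a synonym of Y-linked Ddx3y, had 0 CPM in each female pool, against 123, 99.5 and 135 CPM in the male pools, at least 40.0-fold lower. These bounds allow 3 UMIs over the whole female group. The adjusted p were 3.1e-07, 2.2e-05 and 3.1e-07 in edgeR for Kdm5d, Eif2s3y and Ddx3. AABR07039356.2, which the annotation leaves unnamed, had 272, 408 and 443 CPM in the female pools against 0 CPM in each male pool, at least 96.3-fold higher. The unnamed LOC680227 had 5083, 1861 and 339 CPM in the female pools against 4.92, 6.22 and 0 CPM in the male pools. The unnamed AC241873.1 had 13.3, 11.0 and 6.66 CPM in the female pools against 280, 218 and 152 CPM in the male pools.

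The listed X-linked genes did not pass. Kdm6a, a histone demethylase, averaged 440 ± 46.7 CPM in females and 410 ± 23.1 CPM in males (SD, n = 3 each), a log2 fold change of 0.09 (SE 0.22). The X-linked partners of the Y-linked genes above were Kdm5c at 0.12 (SE 0.32), Eif2s3 at 0.85 (SE 0.41) and Ddx3x at -0.45 (SE 0.28).

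Of the other 13 genes that passed, 8 were higher in females and 5 were lower. Adjusted p here are from edgeR's quasi-likelihood test. Robo2, an axon guidance receptor, had 272, 385 and 717 CPM in the female pools against 354, 62.2 and 56.1 CPM in the male pools. Female pool 1 lay below male pool 1, so the groups overlapped, and the log2 fold change was 1.64 (SE 0.29, adjusted p = 0.0037). Tnr, the matrix protein tenascin-R of oligodendrocytes and some interneurons, had 484, 330 and 271 CPM in the female pools against 118, 149 and 140 CPM in the male pools. The groups did not overlap, and the log2 fold change was 1.38 (SE 0.25, adjusted p = 0.0050). Vcan, the proteoglycan versican of oligodendrocyte precursors, had 199, 99.1 and 153 CPM in the female pools against 32.0, 37.3 and 67.4 CPM in the male pools. Its groups did not overlap either, and the log2 fold change was 1.86 (SE 0.35, adjusted p = 0.0067).

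Cdh13, the cadherin without a cytoplasmic domain, had 404, 253 and 418 CPM in the female pools against 192, 112 and 112 CPM in the male pools, which on the log2 scale was 1.37 higher (SE 0.25, adjusted p = 0.0067). Tmem132d, a neural membrane protein, had 325, 407 and 429 CPM in the female pools against 241, 99.5 and 67.4 CPM in the male pools, or 1.46 higher on the log2 scale (SE 0.28, adjusted p = 0.0071). Grm5, the metabotropic glutamate receptor mGluR5, had 669, 1267 and 942 CPM in the female pools against 519, 423 and 241 CPM in the male pools, or 1.24 higher on the log2 scale (SE 0.28, adjusted p = 0.049). In each of these genes every female pool lay above every male pool. Separation of the groups, here and for Tnr, Vcan and Il6st, describes genes chosen for passing. The share of all genes tested whose groups did not overlap is not given here. The unnamed AABR07021536.1 and AABR07044668.1 stood at 1.39 (SE 0.27) and 1.72 (SE 0.37).

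Among the 5 lower genes, Ndufa4, a subunit of the respiratory chain, had 133, 187 and 49.9 CPM in the female pools against 143, 280 and 438 CPM in the male pools, and stood at -1.38 on the log2 scale (SE 0.28, adjusted p = 0.014). Female pool 2 lay above male pool 1. Il6st, the shared receptor chain gp130 of the interleukin-6 family, had 46.4, 11.0 and 46.6 CPM in the female pools against 116, 162 and 140 CPM in the male pools. Its groups did not overlap, and the log2 fold change was -1.69 (SE 0.35, adjusted p = 0.018). Pcp4, a small regulator of calmodulin, stood at -1.45 (SE 0.30), the histone gene H3f3a at -1.42 (SE 0.31) and the polyamine enzyme Sat1 at -1.15 (SE 0.26).

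Within label set A, which held 1 library of each sex, the difference of log2 CPM was 1.02 for Robo2, 1.17 for Tnr, 2.05 for Vcan and -1.18 for Il6st. Within label set B, with 2 libraries of each sex, it was 2.28 for Robo2, 1.37 for Tnr, 1.32 for Vcan and -2.41 for Il6st. The log2 CPM here were TMM-scaled with a prior count of 2.

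**Figure D4:**
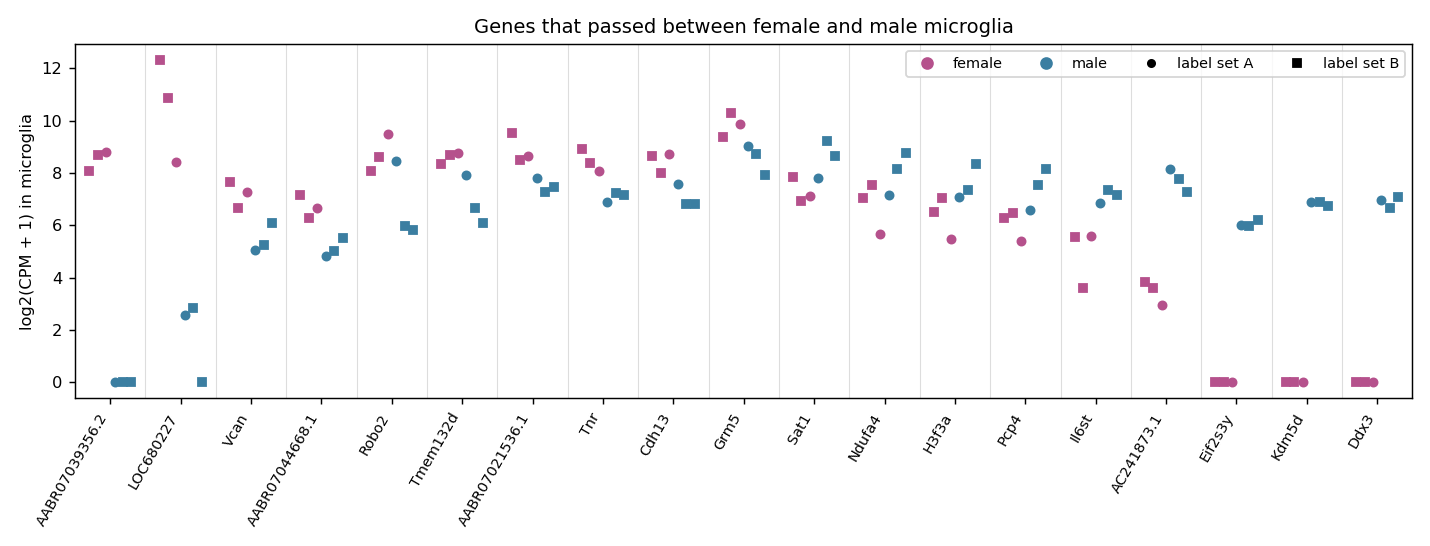
Log2(CPM + 1) in microglia (vertical axis) of the 19 genes with an adjusted p under 0.05 between females and males (horizontal axis), ordered by fold change. Each point is 1 library, female points left of male points and shaped by label set; Kdm5d, Ddx3 and Eif2s3y lie at 0 in all 3 female pools and AABR07039356.2 at 0 in all 3 male pools.

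Each of these 13 genes lost its call without at least 1 of the 6 libraries. Y-linked Eif2s3y also lost its call without female pool 3 and without male pool 1. Without male pool 3, 8 genes passed, and of the 13 only Vcan kept its call. Robo2 and Tmem132d then had adjusted p of 0.14 and 0.22 in edgeR. Without female pool 3, 9 genes passed, and of the 13 only Robo2, Tmem132d and AABR07021536.1 kept their calls. Tnr, Vcan and Cdh13 missed with adjusted p of 0.056, 0.21 and 0.056 in edgeR. Without female pool 1, 20 genes passed, of which 9 were among the 19. Of the 13, only Robo2, Tmem132d and Grm5 then kept their calls. Without female pool 2, which held 32 microglia, 153 genes passed, and without male pool 2, 55 passed. Without male pool 1, 16 passed, and of the 13 Vcan, Grm5, Ndufa4, Pcp4, H3f3a and AABR07044668.1 missed. With no term for the label set 4 genes passed, which were AABR07039356.2, AC241873.1, Kdm5d and Ddx3. DESeq2 kept Robo2, Tnr, Cdh13 and Tmem132d and did not call Vcan, Grm5 or any of the 5 lower genes.

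Genes nearest to the threshold without passing were Opcml, Grik3, Lrrc4c, Cdk14, Grin3a and Zfp385d with higher values in females, between 1.05 and 1.54 on the log2 scale. Clec2g, Atp5f1e, Fkbp2, Gstp1, Tma7 and Gpr34 had lower values in females, between -1.97 and -1.37. Opcml, Grik3, Lrrc4c and Grin3a are known as neuronal adhesion or glutamate receptor genes. Gpr34, a lysophospholipid receptor of microglia, had 56.3, 33.0 and 25.0 CPM in the female pools against 46.7, 118 and 219 CPM in the male pools. Its groups overlapped, and the log2 fold change was -1.50 (SE 0.38, adjusted p = 0.085 in edgeR's quasi-likelihood test).

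No gene of the microglial lists passed between the sexes. All 12 homeostatic genes tested had a log2 fold change below 0, with a median of -0.66 beside 0.00 over all genes, and 0 of them passed. All 11 transcription factors were below 0, with a median of -0.63. Tal1 and Irf8 stood at -1.21 (SE 0.34) and -1.15 (SE 0.32), each with an adjusted p of 0.12 in edgeR's quasi-likelihood test. Medians were -0.55 for 6 complement and Fc receptor genes, -0.30 for 14 kinases and adaptors, -0.34 for 8 sensors and cytokines, -0.37 for 10 lysosome genes and -0.61 for 6 activation and lipid-handling genes. Apoe had 729, 1189 and 378 CPM in the female pools against 767, 1070 and 1684 CPM in the male pools and did not pass, at -0.75 (SE 0.28). Without female pool 2, 90 of 7061 genes tested passed as lower in females. Among them were 2 of 12 homeostatic genes, 1 of 12 transcription factors and 1 of 7 activation genes.

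All 6 neuron markers tested had values above 0, with a median of 0.64, and 0 passed. The summed CPM of the neuron list in microglia were 6468, 9185 and 11484 in the female pools against 8671, 4995 and 3761 in the male pools, and the sexes overlapped. The median microglial nucleus had 0.771, 2.58 and 4.61 neuron marker UMIs per 1000 in the female pools against 2.43, 0.835 and 0.793 in the male pools. In astrocytes the summed CPM were 9389, 7915 and 12592 in the female pools against 9350, 7253 and 6207 in the male pools. In all other kept nuclei they were 16722, 18249 and 18454 against 17859, 15896 and 12594. Male pools 2 and 3 were lowest in all 3 kinds of nucleus. Markers of oligodendrocyte precursors, among them Vcan, summed to 997, 584 and 892 CPM in microglia of the female pools against 568, 485 and 679 CPM in those of the male pools.

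The comparison was repeated on microglia whose neuron marker UMIs per 1000 were under 0.5 times the median of the other nuclei of their library, a choice added after the data were seen. It kept 71, 19 and 77 microglia in the female pools and 70, 52 and 74 in the male pools. The median of the homeostatic list was then -0.36, of the transcription factors -0.29, of the kinases and adaptors -0.01 and of the lysosome genes -0.02. That of the activation list was -0.63. The neuron marker median was 0.13, but these markers chose the set, so that value is a description. Why the other medians moved was not tested. In that set 14 genes passed, 10 of them among the 19. Tnr stood at 2.22 (adjusted p = 2.7e-05 in edgeR), Tmem132d at 1.59 (adjusted p = 0.0083), Vcan at 1.69 (adjusted p = 0.020) and Sat1 at -1.27 (adjusted p = 0.010). Robo2 did not pass, at 1.01 (adjusted p = 0.43), nor did Cdh13, at 1.09 (adjusted p = 0.29). Bcas1, Opcml, Gria4 and Grm7 passed in that set and not in the whole.

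**Figure D5:**
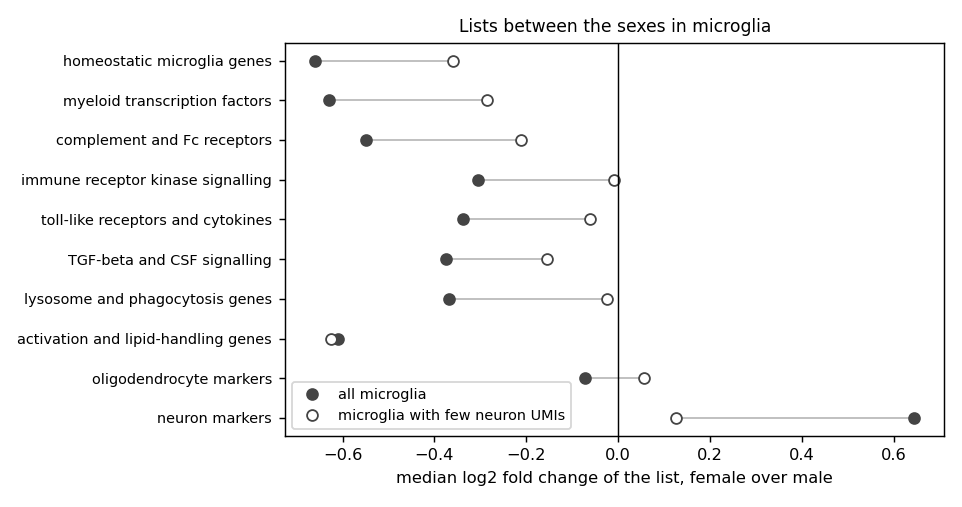
Median log2 fold change of each list between female and male microglia (horizontal axis, female over male) for 10 lists (vertical axis), over all microglia as filled points and over microglia with few neuron UMIs as open points. The homeostatic median was -0.66 and -0.36, the neuron marker median 0.64 and 0.13. The neuron markers chose the nuclei of the open points, so their open point is a description.

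The difference between the sexes was also compared between microglia and all other kept nuclei, in 1 fit with an interaction of sex and kind of nucleus. Of 15050 genes tested, 18 passed, or 0.12%, with 13 above 0 (0.0864%) and 5 below (0.0332%). In the same test 823 had an unadjusted p under 0.05 in edgeR. DESeq2 and edgeR with bias-adjusted deviances, added after the data were seen, called 0 each. Vcan, Robo2 and AABR07021536.1 shared the lowest adjusted p in edgeR, 8.7e-04. The p-values of this fit follow a normal distribution of fold change over SE. They rest on a spread shared over genes and hardly on each gene's own spread between pools. The difference of log2 fold changes was 1.79 (SE 0.34) for Vcan. In all other nuclei Vcan had 50.0, 33.6 and 66.2 CPM in the female pools against 54.6, 48.8 and 44.2 CPM in the male pools. It was 1.36 (SE 0.26) for Robo2, 1.24 (SE 0.24) for AABR07021536.1, 1.15 (SE 0.23) for Bcas1, an early myelination gene of oligodendrocytes, and 1.18 (SE 0.25) for Tnr. Bcas1 had 795, 352 and 408 CPM in microglia of the female pools against 192, 193 and 348 CPM in those of the male pools. Without male pool 2 none of these 5 passed, and without female pool 3 or without male pool 1 Vcan, Bcas1 and Tnr did not.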

How the data were processed

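Nuclei of 6 pooled libraries were measured by 10x Genomics 3' single-nucleus RNA-seq, per the labels' protocols. The authors deposited UMI counts per gene and nucleus as matrices of 32883 features. Cell Ranger 4.0.0 and the rn6 genome are named per the submitters' processing notes. No source used here tells whether the authors removed doublets.

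Of 41974 barcodes, nuclei were kept from 500 UMIs and 300 genes upward if under 5% of their UMIs were mitochondrial. No doublets were removed beyond the Pde10a limit. Counts of the nuclei of a kind were summed per library and tested with edgeR 4.0.16 (quasi-likelihood, TMM, filterByExpr, Benjamini-Hochberg threshold 0.05) in R 4.3.3, with the library as a block between kinds of nucleus and the label set as a covariate between the sexes. DESeq2 1.42.0 was an alternative. CPM are not TMM-scaled, fold changes are. Scrublet in scanpy 1.11.5 scored doublets. Where symbols were carried by more than 1 feature, 196 in all, genes were fitted by feature. On simulated data, the fit between the sexes recovered 98 of 100 genes changed by 2 on the log2 scale. It recovered 39 of 100 changed by 1, with 3 false calls among 5647 genes. The simulation gave every gene the same dispersion and drew the changed genes from those above the median mean count. The spread of the real pools was not simulated, so these counts do not give the recovery or false calls in them.

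The 23 lists held 249 genes, 242 of them in the files. The members and lists were chosen with earlier results of these data known. Named were the rule genes, up to 6 genes per list by fold change or for not passing, the genes outside the lists with the largest fold changes, every gene that passed between the sexes with the 6 nearest in each direction, and the first 5 of the interaction. P-values between the sexes measure the spread between pools, in part shared over genes, which may be technical. Those of the interaction rest almost wholly on the shared part. With 3 libraries per sex the precision is limited. A few genes that this rule names are not reported here.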

Additional observations from a re-analysis of the deposited data

Results flagged for a closer look

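In edgeR's interaction test, 18 genes passed for a difference between the sexes that was unlike in microglia and all other kept nuclei. Its p-values rest on a spread shared over genes. The differences of log2 fold changes were 1.79 for Vcan, 1.36 for Robo2, 1.24 for AABR07021536.1, 1.15 for Bcas1 and 1.18 for Tnr. DESeq2 called 0 of 15050 genes in the same test, with 823 at an unadjusted p under 0.05 in edgeR. In microglia with few neuron UMIs the differences of Robo2 and Vcan did not pass, and the part of RNA from other nuclei was not tested.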

How the results depend on the processing

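The difference in the share of microglia between the sexes could not reach a p under 0.05 in any setting tried. The smallest possible p was 0.1 in the exact permutation tests and 0.25 in the sign flips. The difference of -0.404 percentage points ranged from -0.956 to 0.0443 when 1 library was left out, and turned to 0.0443 without male pool 3. The genes called between microglia and all other nuclei numbered 4619 and stayed between 3573 and 5563, and those against astrocytes numbered 2490 and stayed between 1811 and 3446. Against all other nuclei, 38.5% of calls were higher in microglia, against 49.0% with DESeq2, and the cause was not tested.

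Between the sexes, the count of 19 genes was 11 with DESeq2, 39 with a Pde10a limit of 2, 8 with at least 4 rule genes, 48 with no filter on low counts, 8 with no mitochondrial limit and 4 with no label set. It ranged from 8 to 153 when 1 library was left out. With the replicate number as a block in place of the label set, 3 genes passed. Same-numbered pools had correlations of deviations of -0.483, 0.0454 and -0.471. Numbers 1 and 3 each join pools of different label sets. Female pool 3 and male pool 1, both of label set A, had 0.631. The check therefore cannot tell whether the numbers pair the samples. The sign flips within replicate numbers gave an exact p = 0.75 for the share, where the smallest is 0.25. For the interaction the count of 18 was 0 with DESeq2, 0 with bias-adjusted deviances, 5 with a Pde10a limit of 2, 3 with at least 4 rule genes, 3 in microglia with few neuron UMIs, 30 with no mitochondrial limit and 7 without the highest Scrublet scores, and ranged from 6 to 43 when 1 library was left out. Kdm5c, at 0.12 on the log2 scale, ranged from -0.00126 to 0.33 when 1 library was left out, and Kdm6a turned to -0.0185 with a Pde10a limit of 2. The causes were not tested. Of 659 values for 38 named genes between the sexes, 496 kept their direction and side of the threshold, as did 1295 of 1347 against all other nuclei and 427 of 445 against astrocytes. Depth is a limit of the sex comparison, with 32 microglia and 90799 UMIs in female pool 2.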

Other observations

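Genes of lymphoid and monocyte lists were present in a part of the nuclei. The interleukin-7 receptor gene Il7r had a UMI in 57 of 467 microglia, and after thinning in 5.20% of microglia, 0.0292% of astrocytes and 0.0736% of other nuclei. Plac8, a gene of monocytes and other immune cells, had a UMI in 36 microglia, and after thinning in 4.02% of microglia, 0.146% of astrocytes and 0.0905% of other nuclei. The T cell gene Cd3e had none.

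The proliferation gene Mki67 had a UMI in 60 of 467 microglia, while Top2a had one in 4, Cenpf in 2 and Kif11 in 10. After thinning Mki67 was detected in 7.09% of microglia, 0.643% of astrocytes and 1.49% of other nuclei. It had 69.6, 22.0 and 4.99 CPM in microglia of female pools 1, 2 and 3 and 2.46, 131 and 157 CPM in those of male pools 1, 2 and 3. In all other nuclei it had 49.0, 17.6 and 5.10 CPM in the female pools and 6.71, 61.0 and 44.7 CPM in the male pools. Both libraries of label set A, female pool 3 and male pool 1, were lowest in both kinds of nucleus. Its detection without Top2a and Cenpf was not tested further.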
